A study of Sus scrofa with 30 samples.

Results

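The pig morula was profiled for 2 histone marks, H3K4me3 and H3K27me3 (histone H3 with 3 methyl groups on lysine 4 or on lysine 27), and the places that carried both marks, or 1 mark alone, were compared. The members were the 4 morula libraries, 2 for H3K4me3 and 2 for H3K27me3, chosen by their labelled stage and antibody from 30 libraries in all. The series profiled oocytes and embryos made by in vitro fertilisation, untreated but for 1 group of 4-cell embryos with knockdown of KDM5B and KDM5C that was not used here, with ultra-low-input native chromatin immunoprecipitation and sequencing (ULI-NChIP-seq), which cuts unfixed chromatin of few cells into nucleosomes before pulling down the marked ones. The morula is the compacting ball of cells that comes after the 8-cell embryo and before the blastocyst. All 4 libraries came from untreated embryos of that stage. The labels do not give the breed, how many embryos were pooled, or whether the 2 libraries of a mark came from separate collections, so differences between replicates measure only the spread between these libraries. The MII oocyte (metaphase II, ready for fertilisation), 2-cell, 4-cell, 8-cell and blastocyst groups, with 2 untreated libraries per mark, were used for comparison, as were the H3K4me3 libraries of GV (germinal vesicle) oocytes and 1-cell embryos.

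H3K4me3 is laid down by the SET1 and MLL complexes and marks the starts of active genes and of CpG-rich genes at large. H3K27me3 is laid down by Polycomb repressive complex 2 (PRC2) and marks silent developmental genes. In pluripotent cells the starts of many developmental regulators carry both marks, a state called bivalent, which holds a gene silent but able to be switched on later. The marks were measured here in separate libraries of pooled cells, so both marks at a place need not lie on the same nucleosome, allele or cell, and fewer marked cells and weaker marking per cell cannot be told apart.

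The peak lists of the 2 marks differed in size. On chromosomes 1 to 18, H3K4me3 replicate 1 had 72714 peaks over 121.1 Mb and replicate 2 had 83313 over 134.4 Mb. H3K27me3 replicate 1 had 13251 peaks over 10.3 Mb and replicate 2 had 16019 over 12.9 Mb. The H3K4me3 lists thus covered 5.34% and 5.93% of the chromosomes and the H3K27me3 lists 0.455% and 0.571%. The lists give no read totals. As a guide to depth, the caller's background, recovered from the fold enrichment and p-value of the commonest peak, was 1.5 and 1.69 reads per position for H3K4me3 and 0.170 and 0.182 for H3K27me3. The H3K4me3 background was therefore 8.25 to 9.96 times that of H3K27me3, and its part in the difference between the lists was not tested. By the same fit the commonest peak stood at 6 reads in each H3K4me3 list and at 3 reads in each H3K27me3 list. The weakest H3K27me3 calls thus rested on few reads. The replicates also differed in how far they shared positions. The 2 H3K4me3 lists shared 96.9 Mb, which was 80.1% and 72.1% of their lengths, with a Jaccard index (shared over joint length) of 0.611. The 2 H3K27me3 lists shared 4.46 Mb, which was 43.2% and 34.5% of their lengths, with a Jaccard index of 0.237. As a check of the stage, 11 of 16 pluripotency genes, among them POU5F1, NANOG and SOX2, had H3K4me3 alone, beside 67.1% of all coding genes. So did 4 of 8 cumulus and granulosa genes and 1 of 5 sperm genes, while the cumulus cell markers FSHR and CYP19A1 had no peak at an end. These shares do not set the pluripotency list apart from all genes.

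Most of the H3K27me3 length that both libraries shared in morulae lay under H3K4me3. A base was counted for a mark where peaks of both of its libraries covered it. Both marks covered 2.59 Mb, which was 58.1% of the shared H3K27me3 length but 2.67% of the shared H3K4me3 length. H3K27me3 with no H3K4me3 in either library covered 1.27 Mb (28.6% of the shared H3K27me3 length), and H3K4me3 with no H3K27me3 in either library covered 88.2 Mb (91.0% of the shared H3K4me3 length). The shared H3K4me3 length made up 4.28% of the chromosomes, so its share within H3K27me3 was 13.6 times its share of the whole. Setting each H3K27me3 library against the H3K4me3 library of the same number gave shares of 56.0% and 58.5%. When H3K27me3 replicate 1 was left out, so that 1 library sufficed, the length with both marks was 6.10 Mb and the share 47.2%, and without H3K27me3 replicate 2 they were 5.22 Mb and 50.6%. With peaks of −log10 q of 3 or more alone, the length was 0.199 Mb and the share 35.3%.

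**Figure D1:**
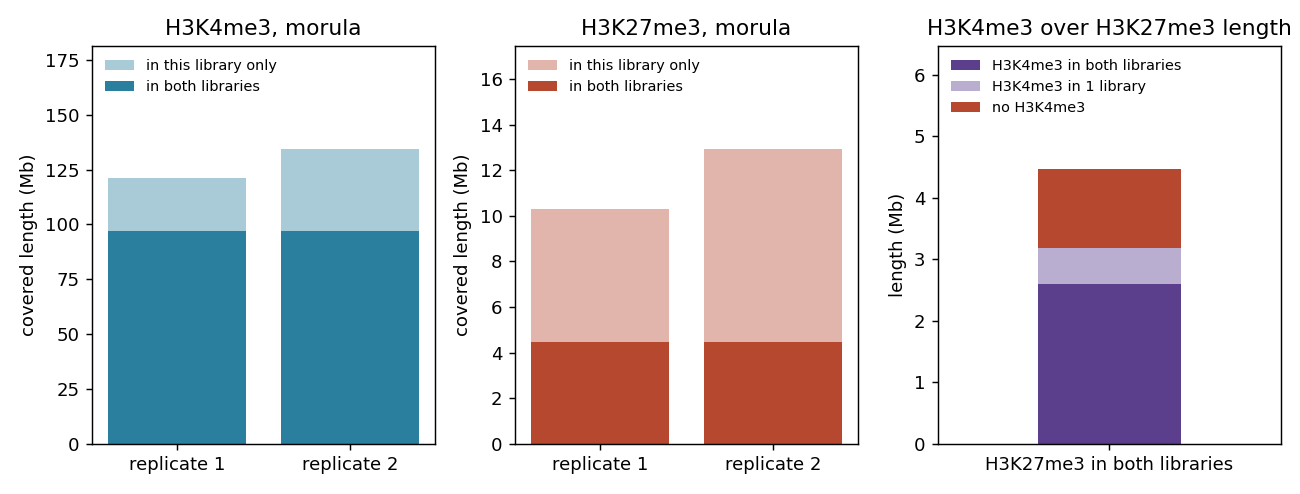
Covered length in Mb of the 2 H3K4me3 libraries (left) and the 2 H3K27me3 libraries (middle), with the dark part of each bar lying in both libraries of the mark, and the shared H3K27me3 length split by H3K4me3 (right). The axes differ in scale: the shared length was 96.9 Mb for H3K4me3 and 4.46 Mb for H3K27me3, of which 2.59 Mb lay under H3K4me3 of both libraries.

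The length with both marks was made of 4222 stretches with a median of 400.5 bp. Of these, 2473 were under 500 bp, 161 reached 2 kb and 11 reached 5 kb. Only 6.30% of this length lay within 1 kb of an end of a protein-coding gene, and 24.7% lay within 5 kb, against 2.99% and 12.4% of the chromosomes. H3K4me3 alone lay closer to gene ends, with 21.5% of its length within 1 kb and 42.4% within 5 kb. H3K27me3 alone resembled the length with both marks, with 5.74% and 22.6%. Inside coding genes lay 48.7% of the length with both marks, beside 47.7% of the chromosomes.

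The longest stretch under both marks was 22522 bp, at chr10:24939632-24962153 (susScr11), and met an end of the uncharacterised gene LOC102162336. The next was 8107 bp at chr6:55017123-55025229, over the right end of ZNF473 (a zinc finger gene) and part of VRK3 (a kinase gene). A stretch of 6698 bp at chr14:111831272-111837969 lay inside PAX2, a regulator of kidney and eye development, 8938 bp from its nearer end. Inside SUSD4, a complement regulator gene, 1 stretch of 6644 bp at chr10:19432074-19438717 was followed by another of 6503 bp at chr10:19446156-19452658. A stretch of 6572 bp at chr14:22390955-22397526 lay in LOC100154415. The stretches in LOC102162336 and SUSD4 were covered in full by H3K27me3 in both MII oocyte libraries and both blastocyst libraries. Those at ZNF473 and LOC100154415 were covered in full in both blastocyst libraries, but the MII oocyte libraries covered none of the second and 0 and 1279 bp of the first.

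At gene ends, H3K27me3 in morulae was rarely found without H3K4me3. Each of the 37444 ends of 18722 protein-coding genes was given a window of 1 kb on either side, and counted as marked where a peak met the window. The annotation used gave no strand, so starts and far ends were treated alike. H3K27me3 was found in both libraries at 548 ends (1.46%), and 470 of these (85.8%) also had H3K4me3 in both libraries, against 43.0% of all ends. The class with both marks thus held 1.26% of all ends, in 438 genes (2.34% of coding genes). H3K4me3 alone held 14738 ends (39.4%) and 12566 genes (67.1%). H3K27me3 alone held 53 ends (0.142%) and 27 genes (0.144%). No peak of any of the 4 libraries met 19722 ends, and 2461 ends were mixed, most with 1 mark in 1 of its libraries. In 364 of the 470 windows (77.4%) peaks of all 4 libraries covered the same base. In the other 106 no base was covered by all 4, which does not tell how the marks lay to each other.

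Genes with both marks mostly had them at 1 end. Both ends carried both marks in 32 genes and 1 end in 406. At the other end of those 406 genes, 203 had no mark, 144 had H3K4me3 alone, 51 were mixed and 8 had H3K27me3 alone. Because neighbouring genes can share a window, the 470 ends stood for 420 separate windows. The median gene span was 17.4 kb for genes with both marks, 25.8 kb for H3K4me3 alone, 9.34 kb for no mark and 20.7 kb over all coding genes. The count of ends followed the H3K27me3 libraries: it was 1015 when H3K27me3 replicate 1 was left out and 832 without H3K27me3 replicate 2, while H3K27me3 alone went to 156 and 107. It was 53 with peaks of −log10 q of 3 or more, 245 with windows of 0.5 kb and 895 with windows of 2.5 kb.

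H3K4me3 peaks were wide at ends with both marks, and H3K27me3 peaks were the narrower of the pair. The widest H3K4me3 peak at an end with both marks had a median of 2944 bp in replicate 1 and 3204 bp in replicate 2. At ends with H3K4me3 alone the medians were 2482 and 2498 bp, and over all H3K4me3 peaks they were 1125 and 1070 bp. H3K4me3 peaks of 5 kb or more were found at 24.5% and 25.7% of ends with both marks, against 14.2% and 14.1% of ends with H3K4me3 alone. In both libraries, the ends with both marks had the wider peaks and the lower enrichment: their median fold enrichment was 5.18 and 5.23, against 9.12 and 8.22 at ends with H3K4me3 alone.

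The widest H3K27me3 peak at an end with both marks had a median of 1031 bp in replicate 1 and 1202 bp in replicate 2. The medians at ends with H3K27me3 alone, 1064 and 1261 bp, were close to these, and those over all H3K27me3 peaks were 537 and 556 bp. The median H3K27me3 fold enrichment at ends with both marks was 3.97 and 3.94. Over all H3K27me3 peaks it was 3.67 and 3.65, and the lowest fold in the lists was 3.42 and 3.39. H3K4me3 was wider than H3K27me3 in every pairing of libraries at 359 of the 470 ends (76.4%), and H3K27me3 was the wider at 28 (5.96%). H3K4me3 reached 5 kb in both libraries at 98 ends and H3K27me3 at 11. All 4 libraries reached 5 kb at 5 ends. The mean of the 2 H3K27me3 medians, 1117 bp, was 705 bp without H3K27me3 replicate 1 and 676 bp without H3K27me3 replicate 2, since ends marked in a single library then entered.

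**Figure D2:**
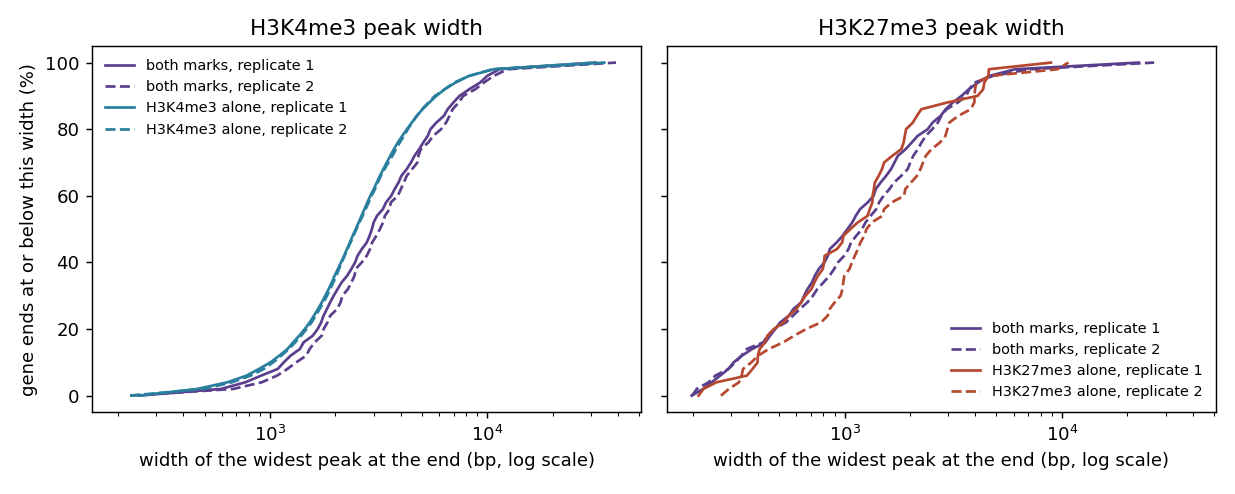
Share of gene ends (%) whose widest H3K4me3 peak (left) or H3K27me3 peak (right) is at or below a given width in bp on a log axis, for 470 ends with both marks, 14738 with H3K4me3 alone and 53 with H3K27me3 alone. Solid and dashed lines are replicates 1 and 2. The H3K4me3 curves of ends with both marks lie to the right of those with H3K4me3 alone, and the H3K27me3 curves lie close together.

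At single genes the 2 marks took every order of width. Ranked by the narrower of the 2 libraries, KIAA1551 had the widest H3K4me3 peaks at an end with both marks after LOC102162336, 24685 and 24933 bp, beside H3K27me3 peaks of 1800 and 2205 bp at its left end. A wider peak in 1 library was met at SUSD4, with H3K4me3 of 1950 and 39080 bp. MSX2, a homeobox regulator of limb and skull development, had H3K4me3 of 18702 and 15469 bp and H3K27me3 of 1093 and 1239 bp at its right end. IGF2BP1, an RNA-binding protein of fetal tissues, had H3K4me3 of 13451 and 16408 bp and H3K27me3 of 519 and 206 bp at its left end. The opposite order was seen at EVX1, a homeobox gene beside the HOXA cluster, where H3K27me3 peaks of 13277 and 15330 bp met H3K4me3 peaks of 384 and 764 bp at the left end. PAX6, the regulator of eye and forebrain development, had H3K27me3 of 6468 and 7740 bp and H3K4me3 of 1872 and 1826 bp at its left end. Beyond the window, further H3K4me3 peaks overlapped the same H3K27me3 peaks. They lay 1.70 to 5.02 kb and 6.04 to 8.03 kb into the gene in replicate 1, and 2.15 to 8.01 kb in replicate 2. At ZNF473 (right end) the marks were about as wide as each other, with H3K4me3 of 9499 and 9167 bp and H3K27me3 of 10262 and 8107 bp.

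**Figure D3:**
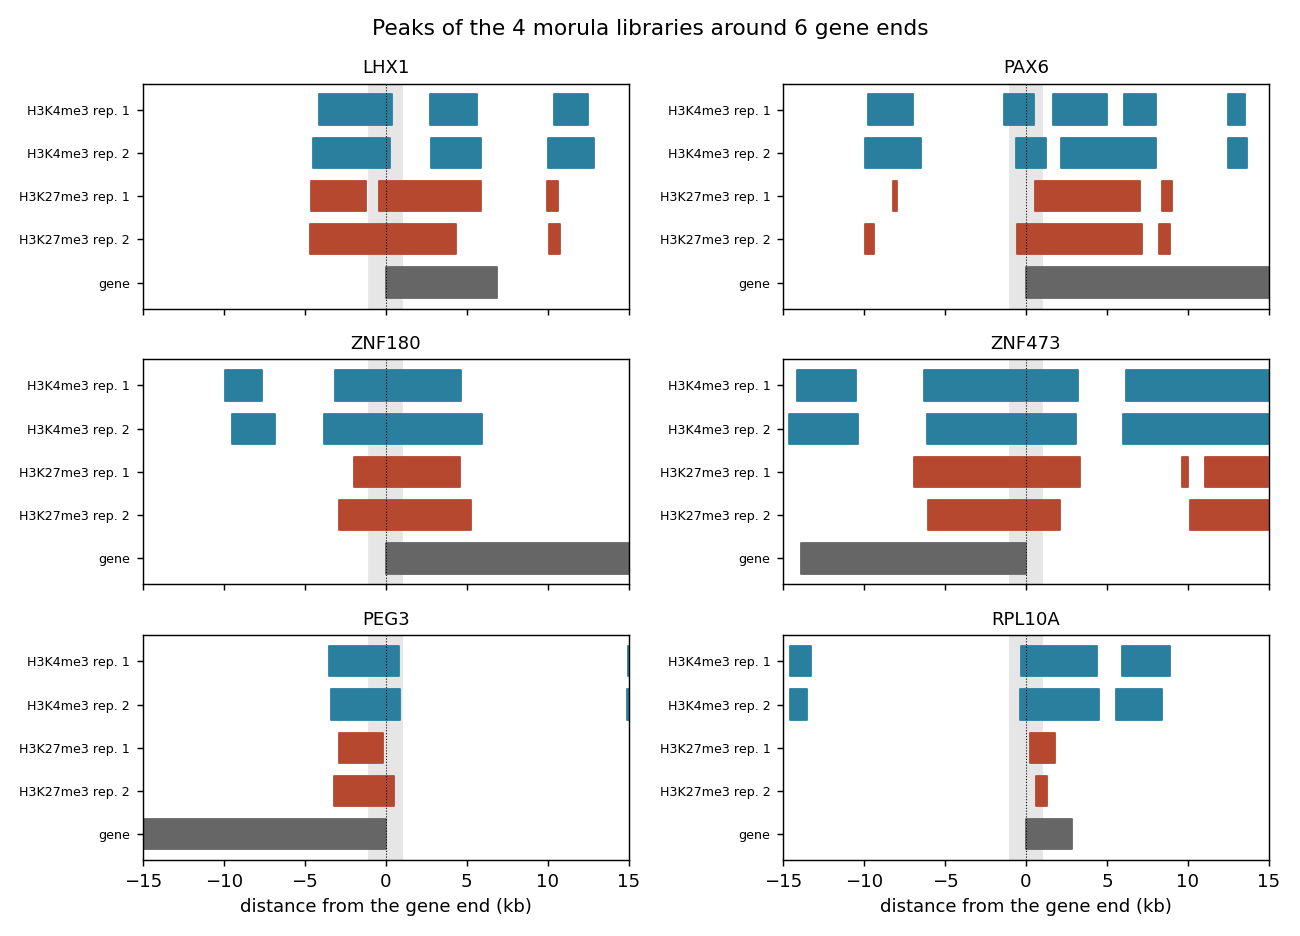
Peaks of the 4 morula libraries (bars) around an end of LHX1, PAX6, ZNF180, ZNF473, PEG3 and RPL10A, by distance from the gene end in kb, cut at 15 kb either side of the end, with the gene as a grey bar and the window of 1 kb either side shaded. At ZNF180 and ZNF473 both marks spanned several kb on both sides of the end, at PAX6 H3K27me3 ran further into the gene than the H3K4me3 peak at the end, and at RPL10A a narrow H3K27me3 peak lay inside a wide H3K4me3 peak.

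Gene families differed in how many members had both marks, beside 2.34% of all coding genes. The families were lists of symbols or symbol patterns, chosen with earlier results of these data known, and several overlap, so their counts are a description. Together they held 2363 genes, of which 179 (7.58%) had both marks, and the 16359 genes in no family had 259 (1.58%). Families high in this count included developmental regulators and signals, zinc finger genes, ribosomal proteins and imprinted genes. Collagens (4 of 40) and cadherins and protocadherins (4 of 41) were also among them. The shares of these last families lay above those of secreted signalling antagonists, HOX genes and receptors, but each rested on 4 genes.

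**Figure D4:**
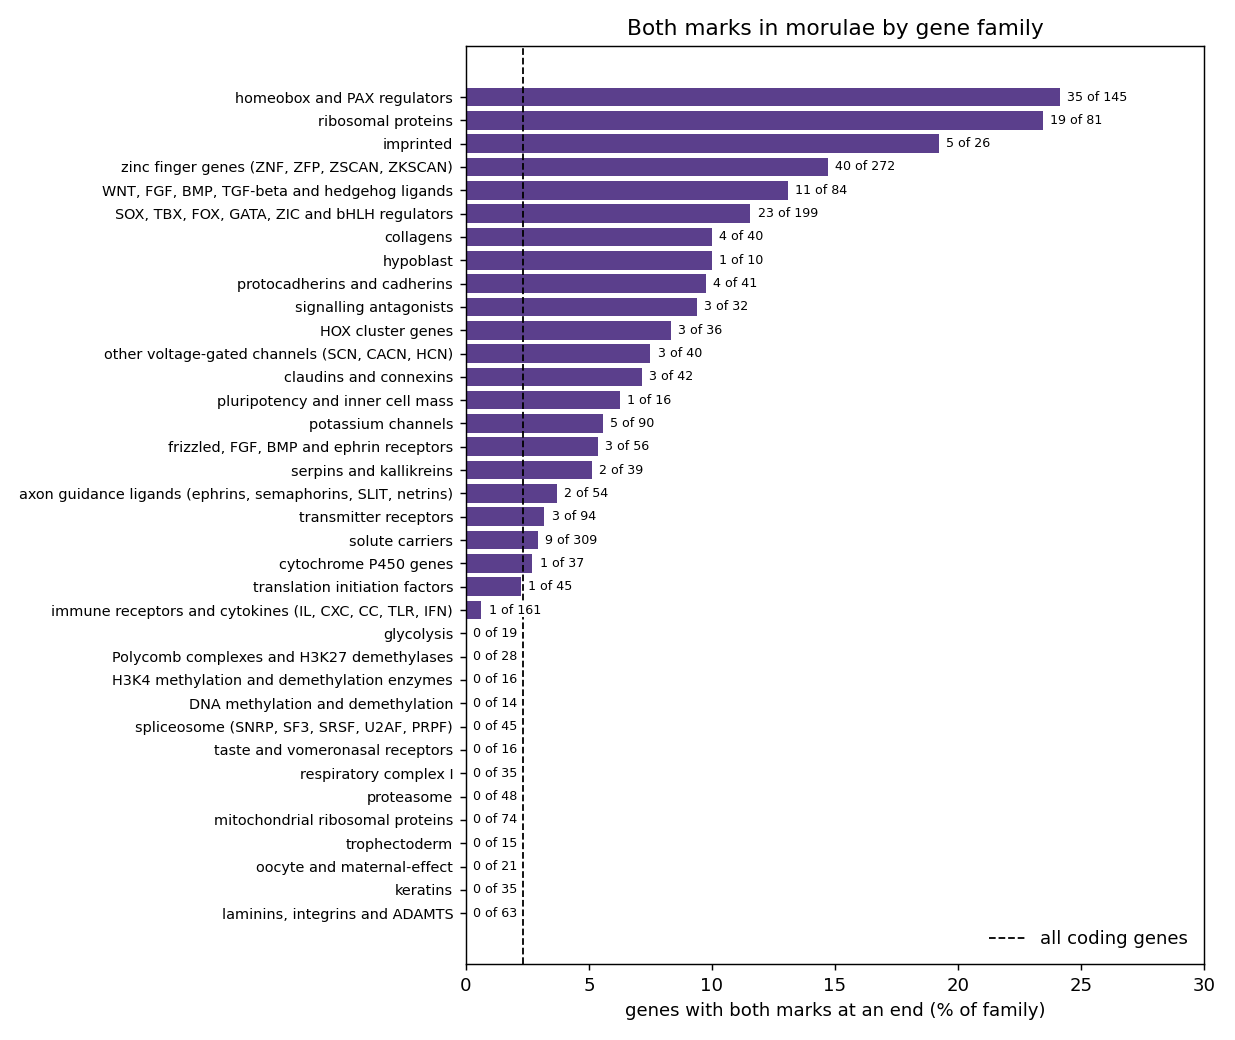
Share of each family's coding genes (%) with both marks at an end in morulae, with the number of genes beside each bar and the share of all coding genes (2.34%) as a dashed line; families of 10 or more genes are shown. Homeobox and PAX regulators (35 of 145) and ribosomal proteins (19 of 81) have the longest bars, and 13 families have no member with both marks.

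Among homeobox and PAX regulators, which encode the transcription factors that lay out organs and body axes, 35 of 145 genes (24.1%) had both marks, 67 had H3K4me3 alone, 1 had H3K27me3 alone (HMX1) and 17 had no mark. LHX1, a regulator of head and kidney formation (chr12:38450708-38457583, left end), had H3K4me3 peaks of 4457 and 4764 bp and H3K27me3 peaks of 6277 and 8960 bp. The length under both marks within 5 kb of that end was 5082 bp. DLX1, a forebrain regulator (chr15:78186667-78191788, left end), had H3K4me3 of 9669 and 9988 bp and H3K27me3 of 674 and 1605 bp. The others included PAX2, PAX7, NKX2-2, NKX2-5, NKX6-1, GBX2, GSX1, RAX, LHX2, LHX4, IRX3, TLX2 and EVX2. Over the family's 45 ends with both marks, the median H3K4me3 width was 3013 and 3052 bp and the median H3K27me3 width 1209 and 1605 bp, so H3K4me3 was the wider by median in each pairing. The family's count was 46 without H3K27me3 replicate 1 and 53 without H3K27me3 replicate 2. It was 7 with peaks of −log10 q of 3 or more (among them HMX3, LHX1, LHX2, NKX1-2, NKX6-1 and PAX6) and 17 with windows of 0.5 kb.

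The HOX clusters, which pattern the head-to-tail axis, stood lower, with 3 of 36 genes (8.33%): HOXA7, HOXA13 and HOXB8. Their H3K27me3 peaks were narrow, 755 and 334 bp at HOXA7, 456 and 575 bp at HOXA13, and 1209 and 749 bp at HOXB8. H3K4me3 alone was found at 26 HOX genes, and 6 were mixed. The HOX count was 7 when either H3K27me3 replicate was left out.

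Of 199 regulators of the SOX, TBX, FOX, GATA, ZIC, basic helix-loop-helix and other kinds, 23 (11.6%) had both marks and 137 had H3K4me3 alone. The list also holds PRDM, FEZF, KLF and EBF genes. OLIG3, a regulator of neuron types in the hindbrain and spinal cord (chr1:26800671-26801489), had both marks at both ends, with H3K27me3 of 5937 and 6561 bp and H3K4me3 of 770 and 4607 bp. TBX2, a T-box regulator of heart and limb (chr12:36878662-36887513, right end), had H3K4me3 of 4739 and 2776 bp and H3K27me3 of 2522 and 1991 bp. TWIST2, a regulator of mesenchyme (chr15:138228640-138276341, left end), had H3K4me3 of 2180 and 3370 bp and H3K27me3 of 2006 and 1951 bp. PRDM12, a regulator of pain-sensing neurons (chr1:270723880-270739468, left end), had H3K4me3 of 4451 and 4224 bp and H3K27me3 of 3349 and 1957 bp. The muscle factor MYOD1 and the nerve cell factor NEUROG2 were in the same class. The count was 44 without H3K27me3 replicate 1 and 37 without H3K27me3 replicate 2.

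Among signalling genes, both marks were found at ligands, receptors and secreted antagonists. Of 84 ligands of the WNT, FGF, BMP, TGF-beta, hedgehog, Notch and neuregulin kinds, 11 (13.1%) had both marks: DLL1, DLL4, BMP3, BMP4, BMP6, FGF3, GDF6, GDF15, NRG2, WNT1 and WNT5B. The Notch ligand DLL4 (chr1:130376720-130386411, right end) had H3K4me3 of 5446 and 5293 bp and H3K27me3 of 3830 and 1476 bp. WNT1, a ligand needed for the midbrain (chr5:15010607-15015007, left end), had H3K4me3 of 3845 and 3829 bp and H3K27me3 of 1387 and 1180 bp. NRG2, a neuregulin (chr2:141660936-141825281, right end), had the wider H3K27me3, 4177 and 4214 bp against 2454 and 1059 bp of H3K4me3. The count of ligands was 17 without H3K27me3 replicate 1 and 14 without H3K27me3 replicate 2. Of 56 receptors 3 (5.36%) had both marks (FZD2, FLT4 and EPHA2), as did 3 of 32 secreted antagonists (9.38%: GREM1, SFRP1 and SFRP2). Axon guidance genes, with 2 of 54 (3.70%: SLIT2 and NTNG2), stood near the 2.34% of all coding genes. The receptor count was 7 without H3K27me3 replicate 1 and 5 without H3K27me3 replicate 2.

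Zinc finger genes with ZNF, ZFP, ZSCAN or ZKSCAN symbols, many of which encode repressors of transposable elements, had both marks at 40 of 272 genes (14.7%). A further 211 had H3K4me3 alone, 12 had no mark and none had H3K27me3 alone. Their H3K27me3 was wide: over their 41 ends with both marks the median was 2066 and 2331 bp, against 1031 and 1202 bp over all ends with both marks. Their H3K4me3 was wide as well, with medians of 5067 and 6128 bp, and low in enrichment, with a median fold of 4.42 and 3.99. Of the 41 ends, 23 lay on chromosome 6, where many of these genes stand in clusters. How many of the family's 544 ends lie on that chromosome was not counted. ZNF180 (chr6:50987466-51008492, left end) had H3K4me3 of 7731 and 9738 bp and H3K27me3 of 6551 and 8104 bp, with 6551 bp under both marks. ZNF473 (chr6:55009252-55023142, right end) had 7088 bp under both marks within 5 kb. ZNF329 (chr6:62799478-62818501, left end) had H3K4me3 of 8408 and 5435 bp and H3K27me3 of 5087 and 6345 bp. ZNF471 (chr6:60783564-60802289, right end) had H3K4me3 of 10882 and 6463 bp and H3K27me3 of 3442 and 7470 bp. These genes are near-identical in part, and it was not stated how reads matching several of them were placed. The count was 4 with peaks of −log10 q of 3 or more and 71 with windows of 2.5 kb.

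Ribosomal protein genes, which every growing cell transcribes, had both marks at 19 of 81 genes (23.5%), with a pattern of widths unlike the zinc finger genes. Their H3K27me3 peaks were narrow, with a median of 484 and 334 bp over 22 ends. Their H3K4me3 peaks were wide and strong, with a median width of 4360 and 4790 bp and a median fold of 10.85 and 9.80. RPL10A (chr7:31327763-31330624, left end) had H3K4me3 of 4636 and 4896 bp and H3K27me3 of 1491 and 662 bp. RPL13 (chr6:410923-413396, right end) had H3K4me3 of 4205 and 3906 bp and H3K27me3 of 486 and 474 bp. Its H3K27me3 fold, 3.42 and 3.39, was the lowest of each list, that of the commonest peak, which the fit of the background put at 3 reads. RPL36 (chr2:73286906-73288512) had both marks at both ends, from the same peaks.

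Other families of constantly transcribed genes had H3K4me3 of similar median fold and few or no ends with H3K27me3 in both libraries. At ends with H3K4me3 in both libraries, the median fold was 10.4 and 9.47 for ribosomal proteins, 11.0 and 9.46 for mitochondrial ribosomal proteins, 11.0 and 9.61 for the proteasome and 10.7 and 9.35 for the spliceosome. H3K27me3 in both libraries was found at 15.4% of these ends for ribosomal proteins and at 2.92% over all genes. It was found at none of 88 such ends of mitochondrial ribosomal proteins, none of 50 of the proteasome and none of 51 of the spliceosome. Among translation initiation factors, with a median H3K4me3 fold of 10.1 and 8.56, H3K27me3 in both libraries was found at 1 of 53 such ends (EIF4A1). In at least 1 library it was found at 37.8% of these ends for ribosomal proteins, 12% for the proteasome, 3.92% for the spliceosome and 2.27% for mitochondrial ribosomal proteins, beside 8.54% over all genes. Ribosomal protein genes have many processed copies in mammalian genomes, so reads can be shared between copies, and their placement was likewise not stated. The count of ribosomal protein genes was 38 without H3K27me3 replicate 1, 29 without H3K27me3 replicate 2, 7 with a fold of 3.5 or more, 2 with −log10 q of 3 or more (RPL7A and RPL27) and 0 where peaks had to cover 50% of the window.

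Of 26 imprinted genes, which are expressed from 1 parental copy, 5 (19.2%) had both marks: PEG3, MKRN3, MAGEL2, GNAS and ASCL2. PEG3 (chr6:61281931-61307788, right end), expressed from the paternal copy in mammals studied, had H3K4me3 of 4337 and 4225 bp and H3K27me3 of 2769 and 3701 bp. MKRN3 (chr1:142492089-142500968, right end) had H3K4me3 of 4759 and 4789 bp and H3K27me3 of 2986 and 2369 bp, and its neighbour MAGEL2 (chr1:142450414-142454633, left end) had 2908 and 4014 bp and 1297 and 2462 bp. ASCL2 (chr2:1558459-1560112), a placental regulator, had both marks at both ends, with H3K4me3 of 2665 and 2340 bp and H3K27me3 of 2920 and 3381 bp. SLC38A4, an amino acid transporter gene, had H3K27me3 alone at its right end. Peaks do not tell the parental copies apart. The count was 8 without H3K27me3 replicate 1.

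Among genes of differentiated cells, both marks were found at 4 of 40 collagens (COL4A1 and COL4A2, which share a window, COL15A1 and COL18A1), 4 of 41 cadherins and protocadherins, 5 of 90 potassium channels, 3 of 40 other voltage-gated channels, 3 of 94 transmitter receptors and 3 of 42 claudins and connexins. Solute carriers, with 9 of 309 (2.91%), stood near the share of all genes. KCNA1, a potassium channel of nerve cells (chr5:65556837-65565880, right end), had H3K4me3 of 2922 and 3010 bp and H3K27me3 of 2757 and 3620 bp. Of 161 immune receptor and cytokine genes, 1 (CCR10) had both marks and 87 had none. The potassium channel count was 10 and 12 without H3K27me3 replicate 1 and 2, and the solute carrier count was 17 without replicate 1. Without replicate 1 the count was 7 for cadherins, 6 for transmitter receptors and 5 for immune genes, and without replicate 2 it was 4, 5 and 2.

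No gene had both marks among 63 laminins, integrins and ADAMTS genes, 48 proteasome genes, 35 genes of respiratory complex I, 74 mitochondrial ribosomal proteins, 45 spliceosome genes, 35 keratins, 21 oocyte and maternal-effect genes, 19 genes of glycolysis, 28 genes of Polycomb complexes and H3K27 demethylases, and 14 genes of DNA methylation. At 2.34% of all genes, lists of this size would hold few such genes. Without H3K27me3 replicate 1 the count was 8 for laminins, integrins and ADAMTS genes, and 2 each for the proteasome, complex I and mitochondrial ribosomal proteins. Without H3K27me3 replicate 2 it was 4 for the proteasome, 2 for oocyte genes and 1 for complex I. The other lists of this paragraph had 0 or 1 in either case. All 16 genes of the enzymes that add or remove H3K4 methylation had H3K4me3 alone.

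Genes of the first cell lineages had H3K4me3 alone about as often as all coding genes (67.1%): 11 of 16 pluripotency and inner cell mass genes, 11 of 15 trophectoderm genes and 6 of 10 hypoblast genes. Of the pluripotency list PRDM14, a regulator of pluripotency and germ cells, was the 1 with both marks (H3K4me3 of 3673 and 3891 bp, H3K27me3 of 1587 and 1550 bp, left end). At POU5F1 the H3K4me3 peaks were 5719 and 6268 bp wide, at SOX2 10513 and 10488 bp, and at NANOG 3650 and 3148 bp. NODAL and ESRRB had no peak at an end. Ranked by the narrower of the 2 libraries, the widest H3K4me3 peaks of named genes at ends with H3K4me3 alone were those of CYB5R1 (31398 and 31396 bp, the same H3K4me3 peak that meets LOC102162336 with H3K27me3 of 22559 and 26587 bp beside that gene), HENMT1 and PRPF38B (28264 and 28504 bp, 1 shared peak), DPPA3 (27302 and 28021 bp), a maternal factor that protects methylation in the zygote, and LARP7 (27897 and 26135 bp).

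None of the trophectoderm genes had both marks in all 4 libraries, but several had H3K27me3 in 1 library, and the count was 3 without H3K27me3 replicate 1 and 2 without H3K27me3 replicate 2. At CDX2, which directs the trophectoderm, H3K4me3 was 14756 and 4012 bp wide at the right end and H3K27me3 was 457 bp in replicate 1 and absent from replicate 2. KRT8 (right end) had H3K4me3 of 10364 and 9492 bp and H3K27me3 of 1302 bp in replicate 1, and TFAP2C (left end) had H3K4me3 of 15593 and 15512 bp and H3K27me3 of 484 bp in replicate 2. Of the hypoblast genes COL4A1 had both marks, and 2 genes had them when either H3K27me3 replicate was left out, as did 2 pluripotency genes without replicate 2. GATA6, the hypoblast regulator, had H3K4me3 alone over 24816 and 21011 bp, and GATA4 had no peak at an end.

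The 53 ends with H3K27me3 alone were few but included wide peaks at developmental genes. EVX1 (chr18:45327711-45331204) had H3K27me3 of 8905 and 3990 bp at its right end, while its left end had both marks. EMX2, a regulator of the cerebral cortex (chr14:127649675-127656972), had H3K27me3 of 4324 and 10711 bp at the right end and both marks at the left end. LHX9, a regulator of gonad formation (chr10:20742323-20764006, left end), had 4612 and 4055 bp, and the transporter gene SLC22A2 (chr1:7289278-7323418, left end) had 4403 and 9732 bp. The cytokine gene TNF (chr7:23699635-23702393) had H3K27me3 at both ends, 4347 and 3962 bp at the right, and no H3K4me3 in either window. Within 5 kb of its right end 297 bp lay under both marks. H3K27me3 peaks of the same widths met the neighbouring genes LTB and LST1, which had both marks. In 16 genes, among them LHX9, PDX1 and KRT19, 1 end had H3K27me3 alone and the other H3K4me3 alone.

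The other stages were not used to choose the classes. Nearly all ends with both marks in morulae had H3K27me3 in both blastocyst libraries, 445 of 470 (94.7%), against 9.26% of all ends. All 53 ends with H3K27me3 alone had it too, beside 10.2% of ends with H3K4me3 alone and 3.0% of those with no mark. In both 8-cell libraries H3K27me3 was found at 38 of the 470 ends (8.09%, against 0.433% of all ends), but the libraries differed, with 39 ends (8.30%, against 0.614%) in replicate 1 and 122 (26.0%, against 3.89%) in replicate 2. It was found in both 4-cell libraries at 12 (2.55%, against 1.30%) and in both 2-cell libraries at 4 (0.851%, against 0.0534%). MII oocytes had it at 150 (31.9%, against 7.29%). H3K4me3 was found in both libraries at 59.4% of the 470 ends in MII oocytes (31.9% of all ends), 56.6% in 1-cell embryos (35.6%), 80.2% in 8-cell embryos (38.5%) and 96.2% in blastocysts (45.9%). At ends with H3K4me3 alone in morulae the values for MII oocytes, 8-cell embryos and blastocysts were close to these, 60.4%, 84.1% and 96.2%. At the other stages they were higher than at the 470 ends. They were 81.0% against 70.2% in GV oocytes and 72.9% against 56.6% in 1-cell embryos. In 2-cell embryos they were 83.5% against 74.3%, and in 4-cell embryos 80.9% against 71.3%. At the 53 ends with H3K27me3 alone, H3K4me3 was found at 41.5% (MII oocytes), 20.8% (8-cell embryos) and 11.3% (blastocysts).

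The class with both marks was larger in blastocysts. It held 2559 ends there (6.83% of all ends), and 430 were also in the morula class, which is 91.5% of the morula ends and 16.8% of the blastocyst ends. In MII oocytes it held 1840 ends (4.91%), of which 129 were shared (27.4% of the morula ends, 7.01% of the MII oocyte ends). In 8-cell embryos 112 ends (0.299%) had both marks and 27 were shared (5.74% of the morula ends), in 4-cell embryos 61 (0.163%) with 7 shared, and in 2-cell embryos 10 (0.0267%) with 4 shared.

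The families with both marks in morulae had different H3K27me3 at earlier stages. Of the 45 homeobox and PAX ends, 34 had H3K27me3 in both MII oocyte libraries, none in both 2-cell, 4-cell or 8-cell libraries, and 44 in both blastocyst libraries. Of the 29 ends of SOX, TBX, FOX and related regulators, 20 had it in MII oocytes, none in 8-cell embryos and 28 in blastocysts. The 41 zinc finger ends had it at 1 in MII oocytes, 12 in both 8-cell libraries and 40 in blastocysts. The 22 ribosomal protein ends had it at 0 in MII oocytes, 1 in 8-cell embryos and 17 in blastocysts. Of the 6 imprinted ends, 3 had it in MII oocytes, 2 in 4-cell embryos, 2 in 8-cell embryos and 6 in blastocysts. MAGEL2 and MKRN3 had it in both 8-cell libraries. Over all ends of each family, both MII oocyte libraries had H3K27me3 at 95 of 290 homeobox and PAX ends. The counts were 130 of 398 for SOX, TBX, FOX and related regulators and 11 of 544 for zinc finger genes. They were 0 of 162 for ribosomal proteins and 15 of 52 for imprinted genes. In the same order, both blastocyst libraries had it at 139, 140, 104, 47 and 21 ends. Both 8-cell libraries had it at 0, 1, 14, 2 and 3. No test of the differences between families was run.

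**Figure D5:**
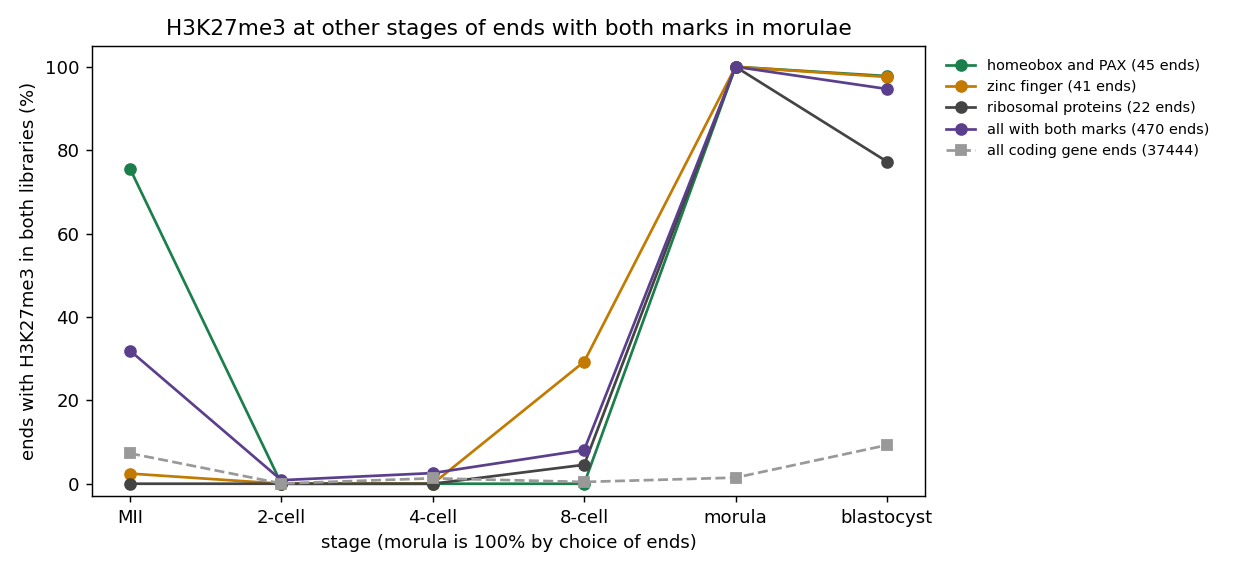
Share of ends with both marks in morulae (%) that had H3K27me3 in both libraries of each stage, for 3 families and for all 470 ends, with all 37444 coding gene ends in grey. The morula point is 100% by the choice of ends. The homeobox and PAX line is high in MII oocytes and in blastocysts, and the zinc finger line is the highest in 8-cell embryos.

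Across the 6 stages with both marks, the share of H3K27me3 length under H3K4me3 was highest in morulae. Each H3K27me3 library was set against the H3K4me3 library of the same number. The share was 56.0% and 58.5% in morulae (57.3% ± 1.73, SD, n = 2), 46.3% and 33.5% in 8-cell embryos, 24.1% and 38.9% in MII oocytes, 24.5% and 21.8% in blastocysts, 11.0% and 14.3% in 2-cell embryos and 7.71% and 4.24% in 4-cell embryos. Both morula values lay above every other value. The stages differed by an exact permutation test of F over all 10395 pairings of the 12 values (one-sided in F, p = 0.00144, Benjamini-Hochberg adjusted over 2 measures p = 0.00289). For morulae against any 1 stage the exact permutation test (two-sided, n = 2 against 2) gave p = 0.33, the smallest possible. The share of H3K27me3-marked ends that also had H3K4me3 was 85.5% and 86.3% in morulae, 75.6% and 73.1% in blastocysts, 61.8% and 78.5% in MII oocytes and 68.3% and 62.6% in 8-cell embryos. It was lowest in 2-cell embryos, 28.8% and 19.6%, and 4-cell embryos, 26.0% and 14.6%. The exact permutation test of F over all 6 stages, these low values included, gave p = 0.00596.

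The length under H3K4me3 also differed between the stages. It was 5.34% and 5.93% of the chromosomes in morulae, 2.84% and 3.5% in 8-cell embryos, 2.69% and 4.30% in MII oocytes and 4.96% and 5.11% in blastocysts. Divided by it, the share of H3K27me3 under H3K4me3 was 10.5 and 9.86 times in morulae, 16.3 and 9.55 times in 8-cell embryos, 8.93 and 9.05 times in MII oocytes and 4.94 and 4.26 times in blastocysts. In 2-cell embryos this ratio was 1.97 and 3.06 times and in 4-cell embryos 3.15 and 3.10 times. On that scale the 8-cell values lay on either side of the morula values, and the blastocyst values stayed below them. The recovered background of the H3K27me3 libraries was 0.170 and 0.182 reads per position in morulae, the lowest of the 6 stages, beside 0.302 and 0.568 in 8-cell embryos and 0.397 and 0.456 in blastocysts, and its part in the shares was not tested. With peaks of −log10 q of 3 or more, the difference of morulae from 2-cell embryos in the share of length was -46.4 points, against 44.6 points with all peaks, and that from blastocysts in the share of ends was -0.388 points, against 11.6.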

How the data were processed

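The data are peak lists of ULI-NChIP-seq libraries, 1 per library, replicates not pooled. Per the submitters' processing notes, reads were aligned with Bowtie2 2.4.1 to the pig build susScr11 and peaks called with MACS2. The MACS2 version, input control, threshold and read filters are not given in the sources used here. Each deposited list gives a peak's start and end in base pairs, the authors' fold enrichment (a ratio to the background of the caller), and the authors' −log10 of the p-value and q-value. The lowest −log10 q in a morula list was 1.24 to 1.52. Positions are printed 1-based.

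Computed here, with Python 3.11.15, numpy 2.4.6 and pandas 2.3.3: overlaps on chromosomes 1 to 18, and windows of 1 kb on either side of coding gene ends from RefSeq annotation of Sscrofa11.1, the same assembly, without strand. A window was marked where a peak met it by at least 1 bp. A gene had both marks where either end had them in all 4 libraries, and 1 mark alone where an end had both libraries of that mark and neither of the other and no end was in another of these classes. The lists of single symbols held 194, and 176 were found in the annotation. The background, a guide to depth, was solved from the commonest pair of fold and −log10 p in each list, where fold is (reads + 1) over (background + 1) and p is a Poisson upper tail. It matched the deposited −log10 p within 1.28e-05, and other solutions missed it by 0.000384 or more.

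Members and lists were chosen with earlier results of these data known. Genes named are those with the longest length under both marks, the widest peaks in each class, up to 4 per family by length under both marks, the lineage genes and the longest stretches. Other members are named without values, and a few genes that the rule names are not reported here. HMX1 and SLC38A4 were named after their class was seen, as single cases, and so were the members with both marks under stronger peaks. No test per gene was run with 2 libraries per mark. Interval functions were tested on simulated data.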

Additional observations from a re-analysis of the deposited data

How the results depend on the processing

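Counts of ends with H3K4me3 alone kept within 1.5 times of the main count under every alternative run, as did all results with chromosome X added. The length with both marks (2.59 Mb) was 0.199 Mb with −log10 q of 3 or more, 4.06 Mb with peaks under 3 kb apart joined, 12.1 Mb with either library of each mark, and 2.79 to 6.10 Mb with 1 library left out. The share of H3K27me3 length under H3K4me3 (58.1%) was 35.3% with −log10 q of 3 or more, 39.2% with a fold of 3.5 or more, 61.6% joined, 64.3% with either library, 44.2% over runs of 500 bp or more, and 47.2% to 67.0% with 1 library left out. Ends with both marks (470) were 53 with −log10 q of 3 or more, 297 with a fold of 3.5 or more, 1453 with either library, 245 and 895 with windows of 0.5 and 2.5 kb, 51 with 50% of the window covered, and 477 to 1015 with 1 library left out. With both marks on the same base, an alternative chosen after seeing the data, there were 364. Ends with H3K27me3 alone (53) were 14 with −log10 q of 3 or more, 210 with either library, 26 with 50% of the window covered, 26 as genes, and 60 to 156 with 1 library left out. The mean median H3K4me3 width (3074 bp) was 3769 bp with −log10 q of 3 or more, 4618 bp joined, and 2944 to 3109 bp with 1 library left out. The mean median H3K27me3 width (1117 bp) was 2696 bp with −log10 q of 3 or more, 1431 bp with a fold of 3.5 or more, 1844 bp joined, 329 bp with either library, and 676 to 1128 bp with 1 library left out. Leaving out a library lets 1 library stand for a mark, so by construction more positions enter.

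The stage effects kept p below 0.05 under every alternative run. Morula minus 2-cell in the share of length (44.6 points) was -46.4 points with −log10 q of 3 or more, and morula minus blastocyst in the share of ends (11.6 points) was -0.388 points. The cause was not tested. For the replicate block, same-numbered libraries of the 2 marks were set against each other: the mean was 6.67 Mb, 950 ends with both marks and 155.5 with H3K27me3 alone. The blocked test of morulae against each other stage gave an exact p of 0.5, the smallest possible. The deviations of same-numbered libraries correlated at -0.00137 over 17722 ends. H3K27me3 was found in both libraries at 548 of these ends and in 1 library only at 1115. At most of the ends the H3K27me3 libraries thus could not deviate, so the correlation cannot tell whether same-numbered libraries were paired. The alternative with only the end that holds the start, and the CpG and GC content of promoters with its alternatives, were not run, since no strand, genome or promoter sequence was used here. The peak lists hold no read totals, so an end without a mark is only an end without a called peak.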

Other observations

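Ends with both marks were spread over all 18 chromosomes. Chromosome 6 had the most, 87 of its 4144 ends (2.10%), of which 23 belonged to zinc finger genes. Chromosome 14 followed by share with 45 of 2362 (1.91%), and chromosomes 13 (0.635%) and 18 (0.597%) had the lowest shares. Of the 438 genes with both marks, 140 (32.0%) had another such gene within 100 kb. Neighbouring genes can share a window, and no share for other genes was computed, so the count does not show clustering.

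Of the 53 ends that kept both marks with peaks of −log10 q of 3 or more, in 49 genes, several belonged to genes in no family used here. They included IKZF1, a regulator of lymphocytes, SFMBT2, a Polycomb protein gene, and INSM1, a regulator of endocrine cells. Also among them were the antimicrobial peptide gene PR39 and the immune genes LTB and LST1, which met the same peaks. These genes were picked out after their values were seen.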
